A study of Mus musculus with 3 samples.

Results

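Both mouse urines were set as one side against phosphate-buffered saline (PBS), to describe what spleen cells shared after contact with either urine. The cells came from the spleen of a male MRL/MpJ mouse aged 6 months, were freed of red cells with ammonium chloride and kept in 24-well plates with 500 µL of medium per well. Treatment lasted 3 h and consisted of PBS, of MRL/MpJ urine (called MRL urine) or of MRL/MpJ-Faslpr/lpr urine (called lpr urine). Urine came from males aged 6 months, was pooled over 6 donors per strain and was passed through a 0.22 µm filter. The lpr allele disrupts Fas, a death receptor, so the urine donors differed at Fas while the cells of all 3 conditions came from MRL/MpJ mice, whose strain name carries no lpr allele. Each condition was read on 1 single-colour array, and the 2 urines are different treatments, not replicates of each other. No SD and no test could therefore be given, since even a permutation of 2 arrays against 1 cannot go below p = 0.333. The values below describe 3 wells and 3 arrays, in which treatment, well and array cannot be told apart.

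A gene was taken as measured where the scanner software called its probe well above background on all 3 arrays, which held for 19122 of the 36590 genes on the array. A gene's level is the log2 processed signal minus the 75th percentile of its array, and its difference is the level with a urine minus the level with PBS. In 18261 measured genes (95.5%) the levels with both urines lay within 0.5 of each other on the log2 scale, and these genes are the ones described. The other 861 were set aside. A gene is called higher or lower here where it agreed in this way and differed from PBS at least 2-fold with each urine. Of all measured genes, 2819 (14.7%) were higher and 1849 (9.67%) were lower, and 13593 agreeing genes were neither. The absolute difference between the urines had a median of 0.11 over all measured genes, against a median of 0.65 for the absolute mean difference from PBS.

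Spleen cell suspensions hold mostly B and T lymphocytes with fewer phagocytes, and such cells answer a change of surroundings within hours through genes that need no new protein for their induction. Among these immediate early genes are the AP-1 subunits, the EGR and NR4A factors and the feedback inhibitors of MAP kinase and NF-kB signalling. Damaged proteins release heat shock factor to induce chaperones, low oxygen stabilises HIF-1 to induce glycolytic enzymes, and microbial products or antigen receptors induce cytokines, chemokines and activation receptors.

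**Figure D1:**
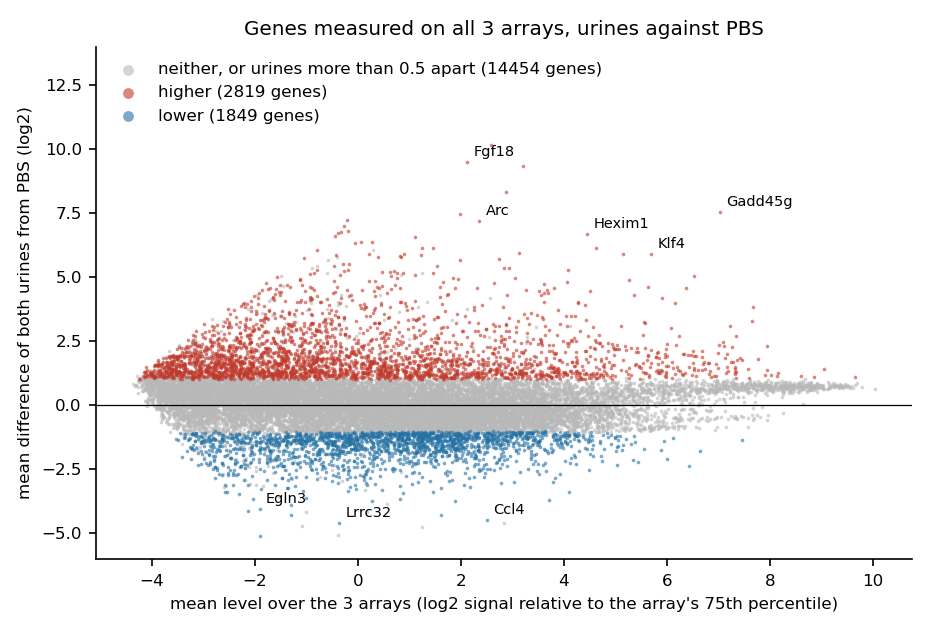
Mean level over the 3 arrays (horizontal axis, log2 relative to the 75th percentile of the array) against the mean difference of both urines from PBS (vertical axis, log2), 1 point per measured gene. The 2819 higher genes are red and the 1849 lower genes blue. Higher genes reach up to 10.16 and lie mostly at low to middle levels, while the lower genes reach -5.09.

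The level by which arrays were scaled, their 75th percentile, was 158 intensity units with PBS, 86.6 with MRL urine and 75.7 with lpr urine, and 59%, 56.4% and 55.3% of probes were well above background. No probe was saturated. The 8 synthetic spike-in transcripts differed from PBS by 0.05 and -0.06 before scaling, so scaling on them instead moves every difference by -0.91 with MRL urine and by -1.0 with lpr urine. This changes the balance of the calls: higher genes were 60.4% of all called genes with the 75th percentile, 32.8% when arrays were scaled on their medians, 43.7% with normexp background correction, 55.1% with quantile normalization and 10.9% with the spike-ins. Where a group's direction turns with the scaling this is said beside it. Counts of a list's higher and lower members are to be read against the 14.7% and 9.67% over all measured genes. Ranks of genes are the same under 75th percentile, median and spike-in scaling, which shift all genes of an array alike. Quantile normalization and normexp correction change them: the median percentile of the chemokine list went from 61 to 46.3 with quantile normalization. A percentile below is a gene's or list's rank among all measured genes from lowest to highest difference. The spread of repeated spots of 1 probe gives a difference an SD of 0.06 over all repeated probes and of 0.37 below a log2 signal of 5, and it leaves out the error between wells and arrays.

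Both sides of the comparison differed in brightness. The median PBS intensity was 39.6 for higher genes and 530 for lower genes, against 204 for all measured genes. This gap follows in part from the calls, since the PBS value is 1 side of each difference. Lower genes also had to stay well above background with the urines. Among the higher genes, 847 differed at least 4-fold with each urine, 241 at least 10-fold and 11 at least 100-fold. Of the lower genes, 305 differed at least 4-fold and 15 at least 10-fold. A further 186 genes were at least 2-fold higher with both urines, and 89 at least 2-fold lower, without agreeing within 0.5. Just inside the agreement limit lay Ern2 (2.20 with MRL urine and 1.70 with lpr urine) and Tcap (1.35 and 1.85), and just outside it Gm34752 (1.29 and 1.79) and Zbtb9 (-1.13 and -1.63). At the 2-fold limit, Mier1 (-1.07 and -1.0) and Prdx2 (1.00 and 1.08) were just inside and Azin1 (1.00 and 1.08) just outside.

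The genes farthest above PBS, among bright enough genes whose probes all differed the same way, were of varied roles. Gadd45g, which encodes a stress-induced partner of MAP kinase kinases that halts the cell cycle, read 626 intensity units with PBS, 65072 with MRL urine and 56521 with lpr urine. Both urine arrays were far above the PBS array, by 189-fold and 188-fold after scaling (log2 differences 7.56 and 7.55; probe at chr13:51943733-51943792, mm9). The transcription factor gene Klf4 read 533, 19423 and 14131 units, a 66.3-fold and 55.2-fold difference (chr4:55540833-55540892, mm9). Hexim1, whose protein keeps the elongation factor P-TEFb inactive, read 155, 9721 and 7088 units and was 114-fold and 95-fold higher (chr11:102980827-102980886, mm9). Phlda1, a gene induced by growth factors and stress, read 229, 9211 and 7459 units, 73-fold and 67.7-fold above PBS (chr10:110945310-110945369, mm9).

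Other genes of this end were close to background with PBS. Fgf18, a fibroblast growth factor gene, read 8.53 units with PBS against 2958 and 3398 with the urines, and Lsmem1, the gene of a small membrane protein, 19.3 against 6414 and 6531. Arc, an immediate early gene known from neurons, read 29 units against 2123 and 2279. Flt1, the gene of a receptor for vascular endothelial growth factors, read 8.12 against 343 and 336 units, and Orc1, which encodes a subunit of the origin recognition complex, 16.2 against 862 and 740. Oxt, the oxytocin precursor gene, read 5.42 against 281 and 310 units. The size of these folds rests on dim PBS values: with normexp correction, which adds an offset of 50, the mean difference of Fgf18 was 6.24 and that of Flt1 3.19, against 9.50 and 6.35 here. The rest of the 15 highest genes were 3110040M04Rik, Rbm44, 5330439K02Rik, Atcayos and 2900060B14Rik. Orc1, Oxt and Rbm44 had 2 measured probes each, and the values here are those of the brighter one. The other probe differed less: by 3.67 and 4.05 for Orc1 (6.60 and 6.57 on the brighter), by 2.49 and 2.88 for Oxt (6.56 and 6.89) and by 0.94 and 1.16 for Rbm44 (6.88 and 6.76).

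**Figure D2:**
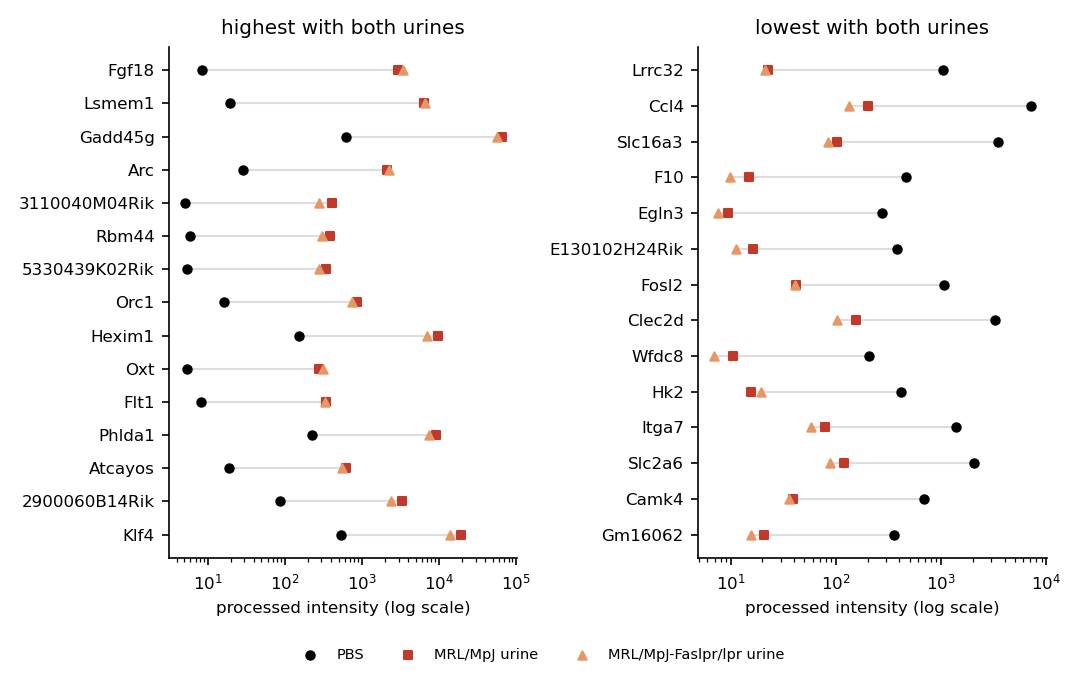
Processed intensity on the PBS, MRL/MpJ urine and MRL/MpJ-Faslpr/lpr urine arrays (horizontal axis, log scale) for the 15 highest and 14 of the 15 lowest genes by the smaller of their differences from PBS. Each gene has 3 points, 1 per array. The genes were chosen for urines that agree and for large differences from PBS. That both urine points lie together and apart from the PBS point follows from this choice. Several of the highest genes read under 10 units with PBS.

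The lowest genes had to reach the median level on their brighter side, so a clear signal with PBS was part of their choice. Ccl4, a chemokine gene of activated lymphocytes and macrophages, read 7097 units with PBS, 200 with MRL urine and 134 with lpr urine, 19.5-fold and 25.5-fold lower (chr11:83478052-83478111, mm9), and its other probe gave a like value. Slc16a3, which encodes the lactate exporter MCT4, read 3442, 102 and 83.6 units (chr11:120820023-120820082, mm9). Lrrc32, whose protein GARP presents latent TGF-beta on regulatory T cells, read 1032, 22.6 and 21 units, a difference of -4.65 and -4.56 (chr7:105650282-105650341, mm9). The oxygen sensor gene Egln3 read 272, 9.5 and 7.52 units (chr12:55280953-55281012, mm9). F10, the gene of coagulation factor X, read 459 units with PBS against 15 and 9.75. Hk2, a hexokinase gene, read 412 against 15.7 and 19.4 units. Clec2d, which encodes a ligand of an inhibitory natural killer receptor, read 3269 against 154 and 102. Also among the 15 lowest were Fosl2, an AP-1 subunit gene, Camk4, a calcium-dependent kinase gene, the integrin gene Itga7, the sugar transporter gene Slc2a6, Wfdc8, Gm16062 and E130102H24Rik.

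The immediate early transcription factors split. Of 31 measured, 10 were higher and 7 lower, and their median differences were 0.46 and 0.37 against 0.13 and 0.15 over all measured genes; the median of the list was -0.50 under spike-in scaling, and 9 and 11 members were then higher and lower. Among AP-1 subunit genes, Jun read 1369, 14014 and 11599 units (4.22 and 4.14), Jund 6936, 38258 and 32019, Junb 13443, 33406 and 34952, and Fosb 92.8, 475 and 574, all higher with both urines. Jund has a second probe that differed by -0.55 with MRL urine. Fosl2 was lower, and Fos differed by 2.26 and 3.08, so that its urines did not agree. In the EGR family Egr1 was higher (2.11 and 2.09), while Egr2, which restrains T cell activation, read 1734, 212 and 210 units and was lower (-2.17 and -1.99). Id3, an inhibitor of E proteins, was higher (3.92 and 3.93). Klf2, which keeps lymphocytes quiescent, read 8116, 1406 and 1152 units and was lower (-1.67 and -1.76), against the 6.05 and 5.79 of its relative Klf4. Members without a call included Ier2 (0.07 and 0.29 on its brightest probe, and 6.81 and 6.75 on its other), Nr4a1 (-0.54 and 0.14) and Atf3 (-1.03 and -0.94).

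Feedback inhibitors of growth signalling went both ways as well, with 7 of 30 higher and 9 lower (median differences 0.04 and 0.09, and -0.91 for the list under spike-in scaling). All 3 Gadd45 genes were higher: Gadd45a read 128, 930 and 946 units and Gadd45b 1781, 15960 and 13417, beside the Gadd45g values above. Plk2, a stress-induced polo-like kinase gene, was higher by 3.92 and 3.56 and Rgs16, a G-protein regulator gene, by 1.97 and 2.12. On the other side, the MAP kinase phosphatase gene Dusp2, abundant in activated leukocytes, read 11260, 1069 and 944 units (-2.53 and -2.52). Tnfaip3, whose protein A20 ends NF-kB signalling, read 5718, 516 and 477 units (-2.61 and -2.53), and the salt-inducible kinase gene Sik1 differed by -2.24 and -2.26. Dusp1, Dusp4, Dusp5 and Dusp6 had no call.

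Genes that set transcription elongation had 4 higher and 3 lower members of 28, near the shares over all genes, and their median of -0.08 and 0.18 was -0.90 under spike-in scaling. Hexim1 stood apart from the rest of them, and its relative Hexim2 read 3027, 8226 and 5818 units (2.30 and 2.0). The cyclin T2 gene Ccnt2, a P-TEFb subunit, was lower on its brightest probe (-2.61 and -2.69) and differed by -0.55 on another of its 5 probes with MRL urine. The kinase gene Cdk9 (0.71 and 0.68), Larp7 (-0.10 and -0.07) and Mepce (-0.10 and 0.14), which encode the other parts of the inactive P-TEFb complex, were without a call. In mRNA decay, 6 of 29 members were higher and 1 lower (20.7% and 3.45%, against 14.7% and 9.67% over all measured genes). The antiproliferative deadenylase partners Tob1 (252, 3285 and 2319 units) and Tob2 (468, 4919 and 3246 units) were higher by 4.56 and 4.26 and by 4.26 and 3.85, and Btg2 by 2.10 and 2.05. The median of the list was -0.08 and -0.04, and it ran from -1.04 to 0.22 over the settings. Btg1 was lower on its brightest probe (-1.30 and -1.46) and differed by 3.16 on its other probe with MRL urine.

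The chaperones of the heat shock response had the largest share of higher genes among the gene lists of 20 or more measured members. The histone cluster genes below, with 33 of 48 higher, were classed later and are not among these lists. Of 25 chaperone genes 12 were higher and none was lower. Their median differences of 1.05 and 1.20 stayed above 0 under every scaling (lowest median 0.16, spike-in scaling, with 6 higher and 3 lower). Hspa1b, which encodes an inducible HSP70, read 454 units with PBS, 5337 with MRL urine and 5014 with lpr urine (4.42 and 4.52), and Hspa1a 1652, 8276 and 7927 units (3.19 and 3.32). The coding sequences of the pair are almost the same, so their probes may share signal. Hsp90aa1, an inducible HSP90 gene, read 6806, 20402 and 15880 units, and Hspa4, of the HSP110 group of nucleotide exchange factors, 2059, 6604 and 7556 (mean difference 2.74, and 0.75 with the median of its probes). Bag3, an HSP70 co-chaperone gene, was higher by 2.24 and 2.31, Hsph1 by 2.04 and 2.07 and Dnaja1 by 1.87 and 1.95. With the median of a gene's probes the mean difference was 3.19 for Hsph1 and 5.63 for Dnaja1, against 2.05 and 1.91 here. The polyubiquitin gene Ubb was higher by 1.36 and 1.46, from 43602 units with PBS to 61731 and 57628. Without a call were the constitutive Hsp90ab1 (0.79 and 0.82), the mitochondrial chaperonin genes Hspd1 (0.27 and 0.40) and Hspe1 (0.71 and 0.79), and the regulators Hsf1 (-0.16 and -0.22) and Hsf2 (-0.20 and -0.16).

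The heat shock element core, searched as GAANNTTC on both strands, was found in the RefSeq promoters of Hspa1a, Hspa1b and Jun on build GRCm38.p6. It was also in those of Fosl2, which was lower, and of Asns, which was below PBS with each urine. The core was in 7.23% of higher, 6.07% of lower and 5.98% of measured genes and in 7.43% of all RefSeq genes, and its part in these values was not tested. Windows of the Hspa1a, Hspa1b and Jun promoters, on the strand of the gene (the minus strand in all 3) and with the match in capitals, are shown. These genes were picked because they were at least 4-fold higher with both urines. They lie at chr17:34972227-34972286, chr17:34959309-34959368 and chr4:95052317-95052376, and the Hspa1a and Hspa1b windows hold the same letters.
Hspa1a: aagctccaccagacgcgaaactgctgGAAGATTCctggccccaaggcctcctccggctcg
Hspa1b: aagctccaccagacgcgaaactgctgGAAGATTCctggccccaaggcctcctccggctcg
Jun: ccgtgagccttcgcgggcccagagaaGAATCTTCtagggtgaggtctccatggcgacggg

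In the osmolyte and ion transport list 5 of 23 were higher and 2 lower (21.7% and 8.7%, near the 14.7% and 9.67% over all measured genes), around a median of 0.02 and -0.06 (-1.0 under spike-in scaling). The myo-inositol importer gene Slc5a3 read 189, 2454 and 1978 units (4.56 and 4.45), the salt-regulated kinase gene Sgk1 415, 1532 and 1515 units (2.75 and 2.93) and the amino acid importer gene Slc38a2 was higher by 1.57 and 1.79. Nfat5, the transcription factor of the tonicity response, differed by 0.90 and 0.89. It had no call, nor had the list members Akr1b3 (0.37 and 0.41) and Slc6a6 (0.06 and 0.16). In the unfolded protein response of the endoplasmic reticulum none of 22 was higher and 2 were lower, Ern1, the gene of the sensor IRE1 (-1.54 and -1.66, and -0.79 at the highest of its 3 probes with MRL urine), and Herpud1 (-1.08 and -1.22). Hspa5, the reticulum's own HSP70 gene, differed by 0.60 and 1.00 on its brightest probe and by up to 2.55 and 2.53 on its others, and with the median of a gene's probes 2 of the 22 were higher.

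Of 27 amino acid stress genes 8 were lower and 3 higher, with a median of -0.71 and -0.95 that was below 0 under every scaling. The aminoacyl-tRNA synthetase genes Sars (-1.31 and -1.32), Gars (-1.15 and -1.19) and Wars (-1.12 and -1.28) and the serine and glycine enzymes Psat1 (-1.74 and -1.76) and Shmt2 (-1.27 and -1.32) were among them. Trib3 (-3.87 and -4.43), Chac1 (-3.88 and -4.41) and Asns (-3.53 and -4.14), which ATF4 induces, were far below PBS with each urine but missed the agreement limit. Against these, Ppp1r15a, whose product GADD34 restores translation after stress, read 5429, 38514 and 41914 units (3.69 and 4.01), and Ddit3, the gene of CHOP, was higher on its brightest probe (3.58 and 3.32) and differed by -1.24 on its other with MRL urine.

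Glycolysis genes were mostly lower. Of 23 measured members 14 were lower and none was higher, the median differences were -1.37 and -1.41, and the median member stood at percentile 6.27 of all genes. The median was below 0 under every scaling, from -2.30 to -1.22. Along the pathway, the glucose importer gene Slc2a1 read 3135 units with PBS, 271 with MRL urine and 195 with lpr urine (-2.67 and -2.95), Hk2 is given above, and the phosphofructokinase genes Pfkp (-1.98 and -2.03) and Pfkl (-1.50 and -1.63) were lower. Aldoa, the main aldolase gene here, read 51830, 11678 and 9345 units. Pgk1, which encodes phosphoglycerate kinase, read 26581, 3461 and 3031 (-2.08 and -2.08), Pgam1 8610, 653 and 475 (-2.86 and -3.12), Eno1 20572, 3484 and 2919, and the lactate dehydrogenase gene Ldha 35808, 5809 and 5064 (-1.76 and -1.76). Tpi1 was lower on its brightest probe (-2.64 and -3.06) and differed by 1.45 on another with MRL urine. Gapdh (-0.89 and -0.78), Pkm (-0.72 and -0.62) and Slc2a3 (-0.87 and -0.90, with 1.66 and 1.43 on its other probe) were below PBS without reaching 2-fold, and Eno2 (-3.92 and -5.47) had urines that did not agree. Hk1, a constitutive hexokinase gene, differed by 0.47 and 0.45.

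Hypoxia targets outside glycolysis showed the same side, with 12 of 24 lower and 1 higher and a median of -1.61 and -1.69 (percentile 3.78, medians from -2.60 to -1.42 over the settings). The mitophagy receptor gene Bnip3 read 2104, 155 and 125 units (-2.90 and -3.01), Ndrg1 2595, 209 and 171 (-2.77 and -2.87), Ankrd37 3285, 302 and 319 (-2.58 and -2.31), and Mif, a cytokine gene, 17174, 2208 and 1853 (-2.10 and -2.16). The regulators were lower too: the prolyl hydroxylase genes Egln1 (-1.76 and -2.0) and Egln3, Vhl (-1.54 and -1.70), which marks HIF for decay, and Hif1a itself (-1.17 and -1.24). Vegfa was the exception, higher by 2.02 and 1.54 on its brightest probe, with a lowest of 0.07 over its 4 probes with MRL urine. Mitochondrial respiratory chain genes, a list of 27, had no member higher and none lower, a median of -0.17 and -0.19 (-1.11 under spike-in scaling) and single values between -0.86 and 0.57.

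The core of the hypoxia response element, ACGTG, was searched on both strands in promoters of protein-coding genes, each gene counting once. It was in 28.4% of lower genes with a promoter in the table, 20.1% of higher genes and 24.9% of measured genes, and in 20.6% of all RefSeq genes. It is part of the E-box CACGTG, which was in 11.2%, 7.17% and 9.65% of lower, higher and measured genes. The promoter windows also differed in base content. Their median ratio of observed to expected CpG was 0.76 for lower, 0.55 for higher and 0.71 for measured genes. ACGTG holds a CpG, and the part of base content in these shares was not tested. Windows of Ldha and Bnip3, lower genes of each list, show the match in capitals on the strand of the gene (plus for Ldha, chr7:46845731-46845787, and minus for Bnip3, chr7:138909583-138909639, GRCm38.p6).
Ldha: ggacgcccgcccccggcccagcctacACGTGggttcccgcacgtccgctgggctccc
Bnip3: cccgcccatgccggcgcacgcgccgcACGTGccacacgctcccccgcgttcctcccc

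**Figure D3:**
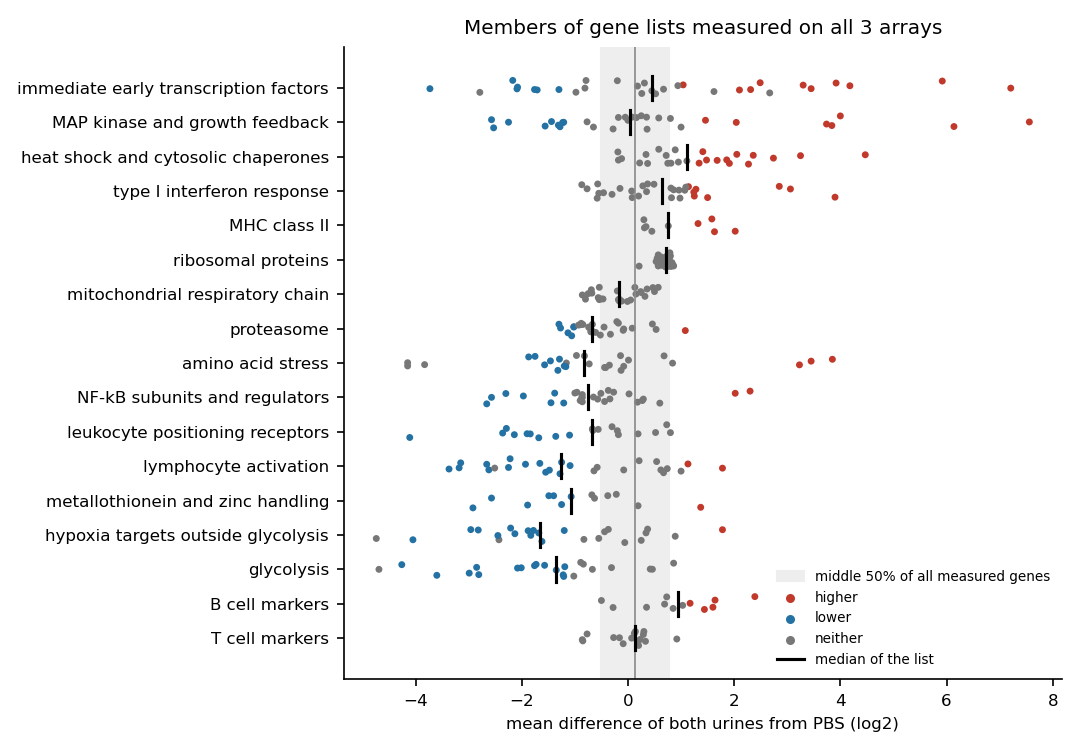
Mean difference of both urines from PBS (horizontal axis, log2) for the measured members of 17 gene lists, 1 point per gene, with the median of each list as a bar and the middle 50% of all measured genes shaded. The heat shock list lies to the right, glycolysis, hypoxia targets and lymphocyte activation to the left, and immediate early and growth feedback genes spread to both sides. Ribosomal protein genes sit between 0.21 and 0.86.

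Activation receptors and regulators of lymphocytes were mainly lower. Of 26 measured, 14 were lower and 2 higher, with a median of -1.18 and -1.32 (percentile 7.30) that was below 0 under every setting. Cd83, a marker of activated B cells and dendritic cells, read 12680 units with PBS against 787 and 508 with the urines (-3.15 and -3.59). Irf4, the transcription factor gene that antigen receptors induce in proportion to their signal, read 3070 against 183 and 166 (-3.21 and -3.15), and Pdcd1, the gene of the inhibitory receptor PD-1, 1186 against 80.4 and 59 (-3.02 and -3.27). The costimulatory receptor genes Tnfrsf9 (-2.58 and -2.65), Tnfrsf4 (-2.21 and -2.30), Icos (-1.93 and -1.94) and Tnfrsf18 (-1.49 and -1.61) and the ligand gene Cd86 (-1.66 and -1.66) were lower. Fas itself, the receptor gene that lpr disrupts, was lower (-1.11 and -1.02). The early activation marker Cd69 was higher on its brightest probe (1.82 and 1.75) and differed by -0.41 on its other with MRL urine.

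NF-kB genes had 7 lower and 2 higher members of 28 (25% and 7.14%, against 9.67% and 14.7% over all measured genes). Their median was -0.79 and -0.71, below 0 under every setting. Rel, the subunit gene induced in lymphocytes, read 8180 units with PBS, 676 with MRL urine and 654 with lpr urine (-2.74 and -2.59), while Rela (-0.82 and -0.93), Nfkb1 (-0.87 and -0.86) and Relb (-0.90 and -0.82) stayed within 2-fold. The inhibitor genes parted: Nfkbia, the main IκB gene, read 8868, 19644 and 17342 units and was higher (2.01 and 2.02), whereas Nfkbie read 2551, 312 and 227 and was lower (-2.17 and -2.44). The adaptor genes Traf1 (-1.41 and -1.48) and Tnip1 (-1.32 and -1.45) were lower. The kappaB motif was in 6.12% of the promoters of lower genes, 5.4% of higher and 4.95% of measured genes, and in 9.94% of the 161 lower genes at 4-fold. Windows of Rel and Nfkbia, which hold it and stood on opposite sides, are given with the match in capitals on the strand of the gene, minus for both (chr11:23771026-23771087 and chr12:55492648-55492702, GRCm38.p6).
Rel: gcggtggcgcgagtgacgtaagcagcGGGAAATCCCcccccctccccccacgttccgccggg
Nfkbia: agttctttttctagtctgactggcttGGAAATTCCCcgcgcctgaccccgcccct

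Receptors that position leukocytes had 9 of 19 members lower and none higher (median -0.70 and -0.90, below 0 under every setting). Ccr7, which guides cells into T zones, read 40474 units with PBS, 4554 with MRL urine and 3630 with lpr urine (-2.29 and -2.42). The follicle receptor gene Cxcr5 read 4735, 557 and 448 (-2.23 and -2.35), Ccr6 8575, 1278 and 1095 (-1.88 and -1.91), the egress receptor gene S1pr1 4609, 851 and 645 (-1.58 and -1.78) and Gpr183, a receptor for oxysterols, 1189, 158 and 121 (-2.05 and -2.24). The integrin genes Itgal (0.74 and 0.71) and Itga4 (-0.19 and -0.20) had no call, but Itga4 differed by as much as -2.71 and -3.45 on its other probes. Of 15 measured chemokine genes 5 were lower and 2 higher, and their median of 0.50 and 0.57 was -0.53 under spike-in scaling. With Ccl4, its neighbour in function Ccl3 read 3006, 405 and 492 units (-2.03 and -1.55).

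Cytokine genes were called on both sides. Ifng, the gene of the main macrophage-activating cytokine of T and NK cells, read 56.3, 360 and 444 units (3.54 and 4.04), and Tnf 398, 583 and 447 (1.41 and 1.23). Il1rn, the gene of the interleukin-1 receptor antagonist, was lower (619, 37 and 32.5 units), as were Csf1 (-1.91 and -1.87) and the granzyme gene Gzmb (-2.36 and -2.33). In all, 2 of 13 inflammatory cytokine genes were higher and 2 lower, 15.4% each way against 14.7% and 9.67% over all measured genes. Under spike-in scaling none of the 13 was higher and 7 were lower, with a list median of -1.20. Tnf had a mean difference of 0.37 there. Of 25 phagocyte genes that respond to microbial products 8 were lower and 2 higher (median -0.39 and -0.57, below 0 under every setting). Among the 13 of them at or above the median level 3 were lower and 2 higher, and the median was -0.05 (percentile 49.4). Acod1, the itaconate-producing enzyme of activated macrophages, read 2131, 116 and 122 units (-3.34 and -3.07), the lectin receptor gene Clec4e 747, 43.3 and 46.3 (-3.24 and -2.96), and Cd14, the lipopolysaccharide co-receptor gene, 916, 114 and 136 (-2.15 and -1.70).

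Type I interferon response genes had 8 higher members of 30 and none lower, against 14.7% higher over all measured genes, and a median of 0.67 and 0.49 (percentile 70.3) that turned to -0.30 under spike-in scaling, where 3 were higher and 8 lower. Isg15, a ubiquitin-like modifier gene, carried the largest value and read 552 units with PBS, 4960 with MRL urine and 3636 with lpr urine (4.03 and 3.78). Oas2, a sensor gene of double-stranded RNA, read 27.8, 114 and 93.7 (2.90 and 2.81), and the antiviral GTPase gene Mx1 6.67, 29.7 and 27.7 units (3.02 and 3.11). Irf7 (0.12 and 0.04), Irf9 (-0.52 and -0.63), Rsad2 (-0.63 and -0.47) and Ifit2 (-0.22 and -0.07) had no call. The Isg15 promoter holds 3 overlapping matches to the interferon-stimulated response element, of which the middle one is shown in capitals (minus strand, chr4:156200855-156200916, GRCm38.p6). That element was in 4.71% of higher, 3.15% of lower and 3.26% of measured genes.
Isg15: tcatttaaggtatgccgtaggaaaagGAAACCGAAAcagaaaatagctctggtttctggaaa

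Of 18 interferon-gamma response genes 5 were lower and 3 higher (27.8% and 16.7%, against 9.67% and 14.7% over all measured genes). Their median was -0.56 and -0.48, below 0 under every setting. The regulator gene Irf1 read 7301, 1228 and 1117 units (-1.71 and -1.65, and -0.30 on its other probe with MRL urine), and the GTPase genes Igtp (-1.56 and -1.66) and Irgm2 (-1.66 and -1.70) were lower. MHC class II genes went the other way in the peptide-loading members: H2-Oa read 875, 2007 and 1657 units (2.06 and 1.98), H2-DMa 490, 872 and 697 (1.69 and 1.57) and H2-DMb1 2316, 3953 and 3200 (1.63 and 1.52), and with H2-DMb2 these made 4 higher of 9. The chains that present peptide, H2-Aa (0.30 and 0.31), H2-Ab1 (0.32 and 0.27) and H2-Eb1 (0.38 and 0.30), had no call. The median of the class II list, 0.79 and 0.74, was -0.19 under spike-in scaling, where none of the 9 was called.

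A histone list of 16 measured genes had 4 higher and none lower (median 0.54 and 0.55, and -0.38 under spike-in scaling). It holds few genes of the histone clusters, so all histone genes on the array were also classed by RefSeq symbol, after the values were seen and with no member left out. Histone genes of the replication-dependent clusters supply new chromatin in S phase and their mRNAs end in a stem-loop, whereas replacement variants are made through the cell cycle. Of 48 measured cluster genes (51 on the array), 33 were higher and none lower, against 14.7% and 9.67% over all measured genes. Their median differences were 2.31 and 2.14 (1.40 and 1.14 under spike-in scaling), and their median percentile was 95.9. All 9 measured H3 genes lay between 1.18 and 3.87 in mean difference, and 7 of them were called higher, the others (H3c14 and H3c8) having urines that did not agree. H3c13 read 319 units with PBS, 1446 with MRL urine and 1312 with lpr urine. H2bc18 read 271, 3145 and 2683 (4.40 and 4.37), H2bc3 628, 2980 and 2575 (3.11 and 3.09), H4c3 312, 1760 and 1711 (3.36 and 3.51), and the bright H2ac23 6843, 21084 and 17960 (2.49 and 2.45). The linker histone gene H1f1 was higher (3.96 and 4.09), and H1f2 to H1f5 had no call, with mean differences as low as 0.03. Single cluster genes were at or below PBS, such as H2bc4 (-0.93 and -0.90) and H2ac18 (-0.40 and -0.28).

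Of 10 measured replacement variants 1 was higher, H2aj (1.29 and 1.33), and the median difference was 0.07 and 0.16 (-0.84 under spike-in scaling). H2az1 read 8481, 4506 and 4284 units (-0.05 and 0.07) and H3f3a 13888, 5966 and 5311 on its brightest probe (-0.36 and -0.33), with up to 1.68 and 1.73 on its other probes. Cluster genes of a class are near-identical in sequence and their probes may share signal, so 33 calls are fewer than 33 independent readings.

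**Figure D4:**
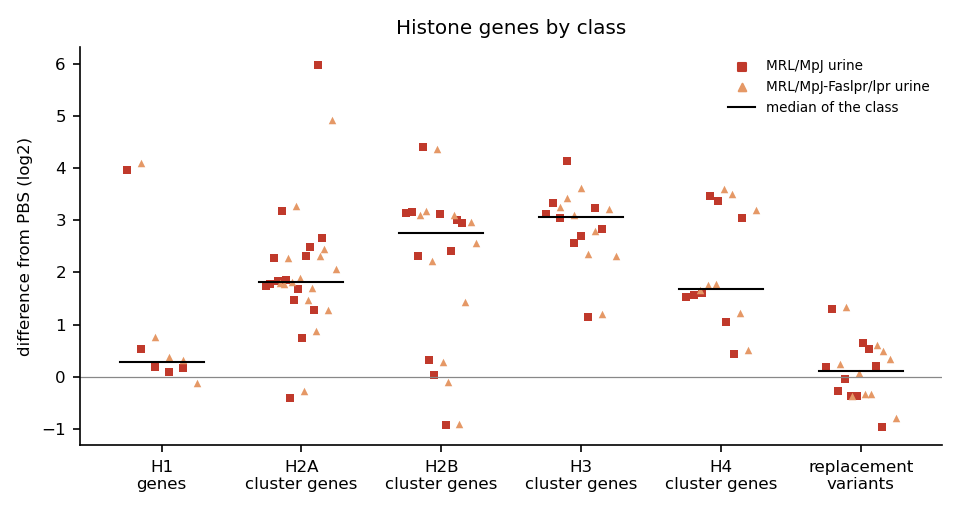
Difference from PBS (vertical axis, log2) with MRL/MpJ urine (squares) and MRL/MpJ-Faslpr/lpr urine (triangles) for measured histone genes by class, with the class median as a bar. The H3 genes lie between 1.14 and 4.14, the H2A, H2B and H4 classes mostly above 1, and H1 genes other than H1f1 and the replacement variants around 0.

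Replication and mitosis genes did not show the histone values as groups. In DNA replication 4 of 25 were higher and 3 lower (16% and 12%, near the 14.7% and 9.67% over all measured genes). The median was 0.08 and 0.08, and -0.87 under spike-in scaling. Orc1, Rrm2 (1.68 and 1.73), Ccne1 (1.67 and 1.84) and Cdc6 (1.53 and 1.49) were higher, and Cdt1 (-1.70 and -1.77), Mcm6 and Mcm7 lower. Of 21 mitosis genes 4 were higher (19%) and none lower (median 0.66 and 0.72, and -0.27 under spike-in scaling). The mitotic cyclin gene Ccnb2 was highest at 92.2, 489 and 487 units (3.27 and 3.46). Mki67 differed by 0.62 and 0.74.

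None of 30 ribosomal protein genes was called, and their mean differences spanned 0.21 to 0.86 around medians of 0.69 and 0.75, which were -0.23 for the list under spike-in scaling. Of 27 proteasome genes 5 were lower and 1 higher (median -0.66 and -0.69, below 0 under every setting). Translation factor genes had 6 lower and 1 higher of 21, among them the mRNA cap-binding gene Eif4e (-1.34 and -1.59) and its inhibitor gene Eif4ebp1 (-1.90 and -2.03).

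Lineage markers of spleen were measured. All 12 B cell, 16 T cell, 13 neutrophil and 9 NK cell marker genes on the array were well above background on the 3 arrays, while 10 of 15 markers of urinary tract epithelium, among them Umod, Upk2 and Krt5, and seminal vesicle and prostate genes (8 of 9 accessory gland markers) were not above background on any. Of the urinary epithelium markers measured, Krt18 was higher at a dim level (8.79, 10.6 and 12.5 units, 1.13 and 1.56) and Upk1a and Aqp2 had no call. In the list of major urinary proteins and liver markers 2 of 5 measured were higher, also under spike-in scaling. Mup20 read 8.75, 37.9 and 26.9 units (2.98 and 2.68) and Mup4 11.1, 42.3 and 28.7 (2.79 and 2.42). These are dim, and with normexp correction their mean differences were 1.09 and 1.11, against 2.83 and 2.61 here. The brightest member, Mup3 (340, 343 and 262 units, 0.88 and 0.68), Apoa2 and Serpina1a had no call. Mup1, Mup5, Alb and Ttr were not above background on any array. Mup genes are near-identical copies whose probes may share signal. Apoa1 was above background with the urines but not with PBS (1.04, 19.5 and 24.5 units). None of 16 T cell markers was called (6 lower under spike-in scaling and 3 under median scaling), and their summed signal over the 75th percentile was 498 with PBS, 477 with MRL urine and 502 with lpr urine. Summed B cell markers were 262, 529 and 507, with 5 of 12 higher (1 higher and 2 lower under spike-in scaling), led by the complement receptor gene Cr2 (3339, 10071 and 8057 units, 2.46 and 2.33). Before scaling, the B cell sums were 41198, 45840 and 38373 units and the T cell sums 78495, 41326 and 37977. Neutrophil sums were 452, 868 and 861 after scaling and 71190, 75242 and 65188 units before it, and the list's median of 0.77 was -0.18 under spike-in scaling, with none of 13 called. Those of platelet and megakaryocyte markers were 8.47, 3.33 and 3.49, which rested on Itgb3 (1087, 107 and 77.8 units), while Pf4 (0.23 and 0.38) and Ppbp (0.81 and 1.16) had no call and Gp9 (1.03 and 1.14) was higher. In bulk cultures fewer cells of a type and less RNA per cell cannot be told apart, and the part of these marker values in the gene results above was not tested.

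Promoter content differed between the called genes. A TATA box (TATAAA, either strand, anywhere in 250 bases before to 50 after the start) was in 12.5% of 1248 higher protein-coding genes with a promoter in the RefSeq table and in 6.61% of 1149 lower ones, against 8.47% of 10407 measured genes and 13.4% of all 17491 genes. The share was 14.5% among genes 4-fold higher and 15.5% among the 1000 highest genes by rank, of which 418 entered. Windows of 3 of the 15 highest genes with a match upstream of the start are shown for its place, with the match in capitals on the strand of the gene (Gadd45g, plus, chr13:51846622-51846674; Flt1, minus, chr5:147726012-147726068; Atcayos, plus, chr10:81194637-81194690, GRCm38.p6). Their matches begin 27 to 31 bases before the start.
Gadd45g: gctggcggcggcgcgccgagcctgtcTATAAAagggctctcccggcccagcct
Flt1: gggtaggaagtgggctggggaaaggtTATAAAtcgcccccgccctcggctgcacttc
Atcayos: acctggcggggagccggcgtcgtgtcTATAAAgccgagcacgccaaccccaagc

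Among other motifs, a CRE (TGACGTCA) was in 1.77% of higher and 4.11% of lower genes (3.06% of measured), AP-1 sites (TGANTCA) in 6.44% and 4.63% (5.12%), CCAAT in 41.7% and 36.6% (38.8%), and the heat shock element core in 7.23% and 6.07% (5.98%). Over all RefSeq genes the shares of these motifs were 2.27%, 7.03%, 38.9% and 7.43%. A match is a run of letters in this window and not a shown binding site. The median GC share of the windows was 57.3% for higher, 60.3% for lower and 59.3% for measured genes. Their median ratio of observed to expected CpG was 0.55, 0.76 and 0.71. The part of base content in the motif shares, the TATA box included, was not tested. Higher genes were also more often without a RefSeq symbol: 19.7% of 4991 such genes were higher and 6.71% lower, against 12.2% and 11.1% of 12896 protein-coding genes and 21% and 7.78% of 1002 long noncoding RNA genes. Of the 4781 genes lowest in mean level 19.2% were higher and 5.71% lower, and of the 4780 highest 11.6% and 7.66%.

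Several genes rested on 1 probe among others that differed. Of 1362 called genes with several measured probes, all probes lay on the same side of PBS in 76.1% and differed at least 2-fold in 40.7%. Mat2a spanned -1.71 to 4.24 over 3 probes with MRL urine, Rnaseh2a 0.90 to 7.24 over 5, Rcc1 -1.58 to 4.15 over 3 and Penk -1.04 to 4.09 over 2. For such genes a call belongs to the brightest probe and not to the gene as a whole.

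**Figure D5:**
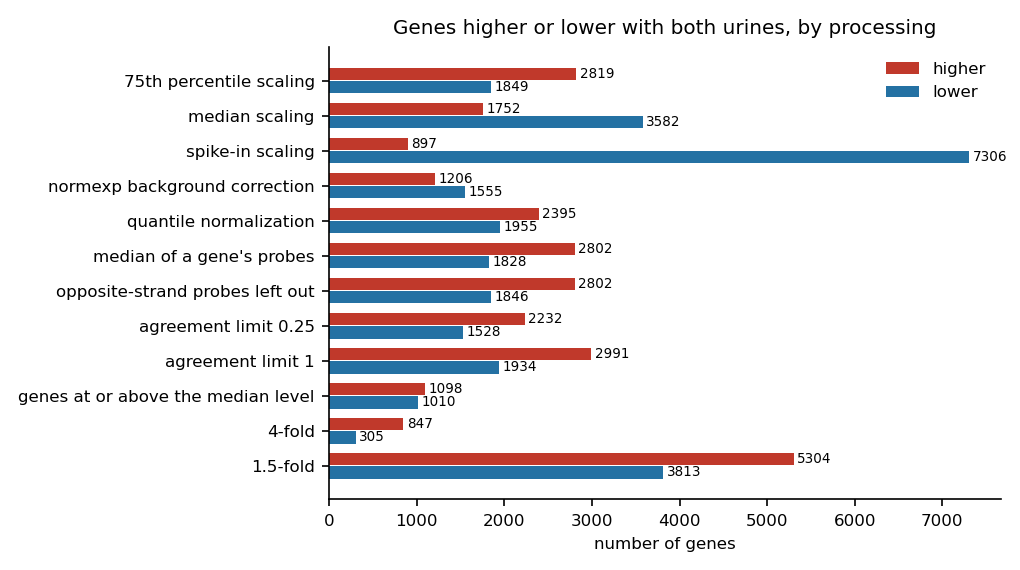
Number of genes higher (red) and lower (blue) with both urines under each way of processing, 2 bars per setting from 0. The 75th percentile scaling gives 2819 and 1849, spike-in scaling 897 and 7306, and median scaling 1752 and 3582, while the choice of probe moves the counts little.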

How the data were processed

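Total RNA of cultured spleen cells (0.05 µg per array, Cy3) was read on 3 single-colour Agilent arrays, 1 per condition. The deposited processed intensity per probe, already background-corrected, came from Agilent Feature Extraction 12.0.3.1 per the file headers and the submitters' processing notes. Here log2 intensity minus each array's 75th percentile over 56599 non-control probes without an outlier flag was used. Other spots were left out, and a few genes are not reported here. A gene was read from its brightest probe well above background on all 3 arrays. Probes carry mm9 coordinates, and RefSeq tables (GRCm38.p6) gave symbols to 44548 probes and gave the promoter windows. No mm9 annotation was used, so exons and introns are not stated.

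The members, the gene lists and the rule for named genes were chosen with earlier results of these data known. The rule kept genes whose brighter side (PBS or the urines) was at or above the median level and whose probes all differed the same way by at least 0.5. Higher genes could thus pass through the urines alone and lower genes through PBS alone. Of these it took the 15 highest and 15 lowest by the smaller difference. In each list it took up to 4 members each way with the largest differences and the members that define it. Some further list members were named for their place in a pathway after their values were seen.

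Calls are 2-fold differences with each urine where the urines agree within 0.5, and no test was made. The call step was tested on simulated data. Alternatives were the scaling (median, spike-ins, quantile), normexp correction with limma 3.58.1 (R 4.3.3), the probe rule, the probe strand, the agreement limit, the level and the fold. Python 3.11.15, numpy 2.4.6, pandas 2.3.3 and matplotlib 3.10.9 were used.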

Additional observations from a re-analysis of the deposited data

Results flagged for a closer look

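A signal appeared in genes outside the comparison, which needs a level on all 3 arrays. In 868 genes the probes were well above background with both urines and not with PBS, and 528 of them had a RefSeq symbol. Each is given as a lower bound under the 75th percentile scaling. It sets the mean level with the urines against the lowest signal well above background on the PBS array or the gene's own PBS value, whichever was higher. That scaling itself raises the urine arrays by 0.86 and 1.06 (log2) against PBS. Before scaling, the lowest signals well above background were alike, at 4.47 units with PBS, 4.46 with MRL urine and 4.43 with lpr urine. A gene at these limits is thus already close to 2-fold apart after scaling. That all 868 genes had a bound of at least 2-fold therefore follows almost wholly from the scaling. With spike-in scaling the urine levels would be lower by 0.91 and 1.0, and the bounds smaller. Gm3336 was at least 973-fold higher (4.14 units with PBS, 2570 with MRL urine and 1947 with lpr urine), B230344G16Rik at least 321-fold, Smim41 at least 308-fold and 1700016G22Rik at least 148-fold. Hcrt, the precursor gene of the orexin neuropeptides, was at least 114-fold higher (0.919, 243 and 282 units).

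The opposite pattern held in 1414 genes, well above background with PBS and with neither urine, of which 185 had a bound of at least 2-fold. The same scaling makes these bounds smaller, so this count cannot be set against that of the genes above. Lyzl6 was at least 58.6-fold lower with the urines, Gdf15, which encodes a stress-induced cytokine, at least 16.3-fold. For Eml1 the bound was 18.4-fold. Mir155hg, the host gene of a microRNA of lymphocyte activation, was at least 13-fold lower (112, 2.82 and 1.36 units). Il6, the interleukin-6 gene, was at least 10.7-fold lower (92.7, 3.28 and 2.84 units).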

How the results depend on the processing

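Of the counts of higher and lower genes (2819 and 1849, higher share 60.4%), the scaling moved most: they were 1752 and 3582 (32.8%) with median scaling and 897 and 7306 (10.9%) with spike-in scaling. Normexp correction gave 1206 and 1555 (43.7%) and quantile normalization a share of 55.1%. Genes at or above the median level gave 1098 and 1010 (52.1%), a 4-fold call 847 and 305 (73.5%) and a 1.5-fold call 5304 and 3813 (58.2%). In the latter 3 the counts change by construction, but the share of higher genes does not have to. Of the 2819 higher genes, 877 were also higher with spike-in scaling, and 1800 of the 1849 lower genes were also lower.

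With the median over a gene's probes in place of the brightest probe, Btg1 turned to 0.85, Mat2a to -1.38, Penk to 1.57 and Rcc1 to 4.04 in mean difference. No other named gene with a call reversed under the 6 settings of scaling, correction or probes. Some genes without a call changed sign, such as H3f3a (1.63), Slc2a3 (0.33) and Nfkb1 (0.10) with the median of probes, and Cdk9 (-0.26) and Mki67 (-0.27) with spike-in scaling. Of the named genes with a call, 150 kept it with spike-in scaling and 26 lost it, and with normexp correction these counts were 161 and 15. No paired analysis was possible because each condition has 1 array and the labels give no replicate numbers. Dim probes limit the folds: below a log2 signal of 5 the spot SD of a difference was 0.37.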

Other observations

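Other gene lists held values not given above. Of 13 metallothionein and zinc transport genes 7 were lower and 1 higher, with a median of -1.02 and -1.12 that was below 0 under every setting. The metal-binding genes Mt1 (2158, 168 and 129 units, -2.82 and -3.01) and Mt2 (1698, 157 and 138 units, -2.57 and -2.57) and the zinc exporter gene Slc30a1 (-1.43 and -1.55) were lower. Of 16 circadian clock genes 6 were lower and none higher (median -0.72 and -0.59, below 0 under every setting), among them Per1 (3487, 371 and 326 units, -2.37 and -2.36), Nfil3 (-2.55 and -2.30) and Bhlhe40 (-2.27 and -2.06). In the TGF-beta list 5 of 17 were lower and 1 higher (median -0.55 and -0.37, below 0 under every setting): beside Lrrc32 these were the ligand gene Tgfb3 (-2.46 and -2.62), the integrin gene Itgav (-2.54 and -2.67), the receptor gene Tgfbr2 (-1.38 and -1.45) and the signal transducer gene Smad3 (-1.97 and -2.12), with the repressor gene Ski higher (1.54 and 1.74).

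Of 29 cholesterol genes 5 were higher and 5 lower, 17.2% each way against 14.7% and 9.67% over all measured genes. The median was -0.14 and -0.07, and -1.06 under spike-in scaling. The synthesis genes Sqle (785, 99.5 and 71.1 units, -2.12 and -2.41) and Cyp51 (-2.01 and -1.90) were lower. Mylip, whose product degrades the LDL receptor, read 553, 3749 and 2677 units and was higher (3.62 and 3.33), as were Insig1, which restrains synthesis (3.01 and 2.71), and the sterol exporter gene Abca1 (1.73 and 1.79). In the BCL2 family the survival gene Bcl2 was higher (1.83 and 1.80) and the death-promoting genes Bcl2l11 (-2.73 and -2.25), Bmf (-1.92 and -2.15, and -0.13 on its other probe with MRL urine) and Bbc3 (-1.86 and -1.75) were lower. The list had 1 higher and 3 lower of 13 (7.69% and 23.1%, against 14.7% and 9.67% over all measured genes). Its median was below 0 under every setting, and Bcl2l11 spanned -2.73 to 0.90 over its 4 probes with MRL urine.

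By symbol stem, a grouping chosen after the values were seen, 19 of 79 measured olfactory receptor genes (Olfr) were higher (24.1%) and none lower, at a median level of -2.77. Over all measured genes 14.7% were higher, and of the 4781 genes lowest in mean level 19.2% were higher and 5.71% lower. None of 48 genes of the large mitochondrial ribosomal subunit (Mrpl) was higher and 10 were lower (20.8%, against 9.67% over all measured genes).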
